A study of Mus musculus with 9 samples.

Results

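The livers of fat-fed and chow-fed mice were compared for their miRNA content on 6 one-colour Agilent mouse miRNA arrays, 3 titled Control and 3 titled High fat diet, of 9 arrays in the series. The arrays were chosen by title alone, and every mouse miRNA name on them was read: 1881 miRNAs, of which 143 could be tested. All mice were C57BL/6J males, aged 20 weeks at the end. The control group ate normal chow for 17 weeks, starting at 3 weeks of age. The high fat diet group ate a diet giving 45% of kcal as fat over the same weeks, and received saline by gavage for the last 5 weeks, from 15 weeks of age. Whether control mice were gavaged with anything was not stated in the sources used here, so diet and gavage cannot be told apart. Each array measured a pool of 4 livers of its group, so that n counts pools, not mice. The other 3 arrays, from fat-fed mice given metformin, entered only the scaling, the filter and the shared estimate of the spread.

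A miRNA is a short RNA that guides the Argonaute protein to messenger RNAs carrying matches to its seed, bases 2 to 8, and lowers their translation and stability. In liver, miRNAs are known to act on cholesterol and fatty acid synthesis, insulin signalling and the fibre-forming response of stellate cells, and several of them change in fatty liver. One locus is read as a hairpin that can give a 5p and a 3p arm. Numbers in miRNA names follow the order in which sequences entered the miRBase registry, so high numbers mark late entries, most of which have no described function.

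After the diet 20 of 143 miRNAs (14%) passed an adjusted p of 0.05 by limma, 6 higher (4.2%) and 14 lower (9.79%). The mature sequences of the 5 raised miRNAs that matched by name in the RefSeq table (build GRCm38.p6) are printed first, 5′ to 3′ with the seed in capitals, because they carry the rises.
miR-34a-5p: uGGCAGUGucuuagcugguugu
miR-342-3p: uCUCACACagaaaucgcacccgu
miR-425-5p: aAUGACACgaucacucccguuga
miR-199a-3p: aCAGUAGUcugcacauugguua
miR-1839-5p: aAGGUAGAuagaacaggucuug
Of the lowered miRNAs 7 are printed, with the seed again in capitals, because their base content is compared further on.
miR-5126: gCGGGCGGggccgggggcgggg
miR-149-3p: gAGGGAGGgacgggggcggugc
miR-3102-5p: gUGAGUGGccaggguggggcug
miR-6538: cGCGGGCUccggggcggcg
miR-202-3p: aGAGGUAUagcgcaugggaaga
miR-677-3p: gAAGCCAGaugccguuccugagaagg
miR-3963: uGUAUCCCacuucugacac
The seeds of these raised miRNAs differ from one another. None of the 18 called miRNAs with a sequence shared its seed with another of the 125 tested miRNAs that have one. The seed of miR-34a-5p, GGCAGUG, is that of the miR-34 and miR-449 family. The lowered sequences printed here hold 40.9% to 77.3% guanine, other than miR-677-3p (34.6%) and miR-3963 (10.5%). The called miR-185-5p and miR-3960 are named only.

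Levels are given in 2 ways. Intensity is a probe's median spot brightness after background subtraction, outside the edge columns in which bright probes lost signal. The scaled level is the log2 ratio of that intensity to the 75th percentile, on the same array, of the 187 probes that all 9 arrays detected, so 0 marks that percentile. Differences are scaled levels of the high fat diet minus control arrays unless said otherwise. Over all 143 tested miRNAs their median was 0.03. No level of one miRNA is set against that of another, because probes differ in brightness.

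The scaling itself differed between the groups and bears on every direction below. The percentile stood at an intensity of 193, 221 and 225 on the control arrays and 221, 279 and 323 on the high fat diet arrays, a log2 difference of 0.35. Dividing by it took 0.35 from the difference of 139 of 143 miRNAs (within 0.001). For the other 4, which had values at the floor, it took 0.21 to 0.40. All 27 probes that the files mark as positive controls and that all arrays detected were also brighter with the diet on average, by 0.05 to 0.29 on the log2 scale (median 0.13). Total miRNA per amount of liver was not measured.

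The strongest rise was that of miR-34a-5p, which p53 induces and which acts against the deacetylase Sirt1; it is raised in many models of fatty liver. Its intensity was 54.0, 58.8 and 55.6 on the control arrays and 184, 200.1 and 172 on the high fat diet arrays. Each fat-fed pool was thus well above each chow-fed pool before any scaling. The scaled level rose 2.58-fold, from -1.92 ± 0.09 (SD, n = 3) to -0.55 ± 0.33 (SD, n = 3), a log2 difference of 1.37 (SE 0.14, adjusted p = 0.000265 by limma). The fat-fed pools varied more among themselves, at -0.27, -0.48 and -0.91, than the chow-fed pools at -1.84, -1.91 and -2.02. A second probe for the same miRNA, detected on all 6 arrays, gave a difference of 1.45. Without any 1 of the 9 arrays in turn the miRNA passed 9 of 9 times, with differences of 1.25 to 1.55. The other members of the family, miR-34b-5p, miR-34c-5p and miR-449a-5p, were detected on 0 of the 6 arrays.

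The remaining 5 rises were smaller. miR-185-5p, which is known to act on genes of cholesterol synthesis and uptake, read an intensity of 16.2, 21.4 and 23.6 on the control arrays and 30.2, 40.2 and 42.5 on the high fat diet arrays. Its scaled level rose 1.45-fold, from -3.40 ± 0.16 to -2.87 ± 0.07 (log2 difference 0.53, adjusted p = 0.00827 by limma), and the call was kept without any 1 array in turn. miR-342-3p, from an intron of Evl and abundant in blood-forming cells, read 34.8, 39.9 and 41.7 on the control arrays and 54.9, 65.4 and 76.3 on the high fat diet arrays. The scaled values of miR-342-3p lay close together within each group, at -2.46 ± 0.02 and -2.06 ± 0.04, and the difference was 0.39 (adjusted p = 0.0174 by limma). That call was lost without the first high fat diet array (0.40, adjusted p = 0.0677).

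miR-199a-3p, a marker of stellate and mesenchymal cells, is made from hairpins in Dnm2 and in the Dnm3 and Dnm3os locus. Its intensity was 37.3, 43.2 and 41.5 in control and 50.7, 65.1 and 79.5 with the diet. The groups did not overlap, and the scaled level rose by 0.31 (SE 0.08, adjusted p = 0.0301 by limma). miR-425-5p, from the host gene Dalrd3, read 14.5, 16.2 and 17.2 against 20.8, 29.3 and 29.6, with a rise of 0.37 (adjusted p = 0.0232). miR-1839-5p, a miRNA without a well known role, read 10.2, 12.6 and 14.2 against 16.9, 23.7 and 21.5, with a rise of 0.39 (adjusted p = 0.0397) and detection on 2 of 3 control arrays. Neither of the last 2 exceeded an intensity of 29.6 on any of the 6 arrays. Leaving out single arrays ended the call of miR-199a-3p without each of the 3 high fat diet arrays (0.35, 0.32 and 0.28) and that of miR-425-5p without the first or second of them (0.42 and 0.32). With normexp background correction of the median spot signal 1 of the 6 rises, miR-34a-5p (0.77), was kept, while miR-185-5p was at 0.0008 (adjusted p = 0.997), miR-199a-3p at 0.05, miR-342-3p at 0.07, miR-425-5p at -0.12 and miR-1839-5p at -0.14. The call of miR-1839-5p was kept in 2 of 9 leave-one-out fits, those without the third array of either group.

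**Figure D1:**
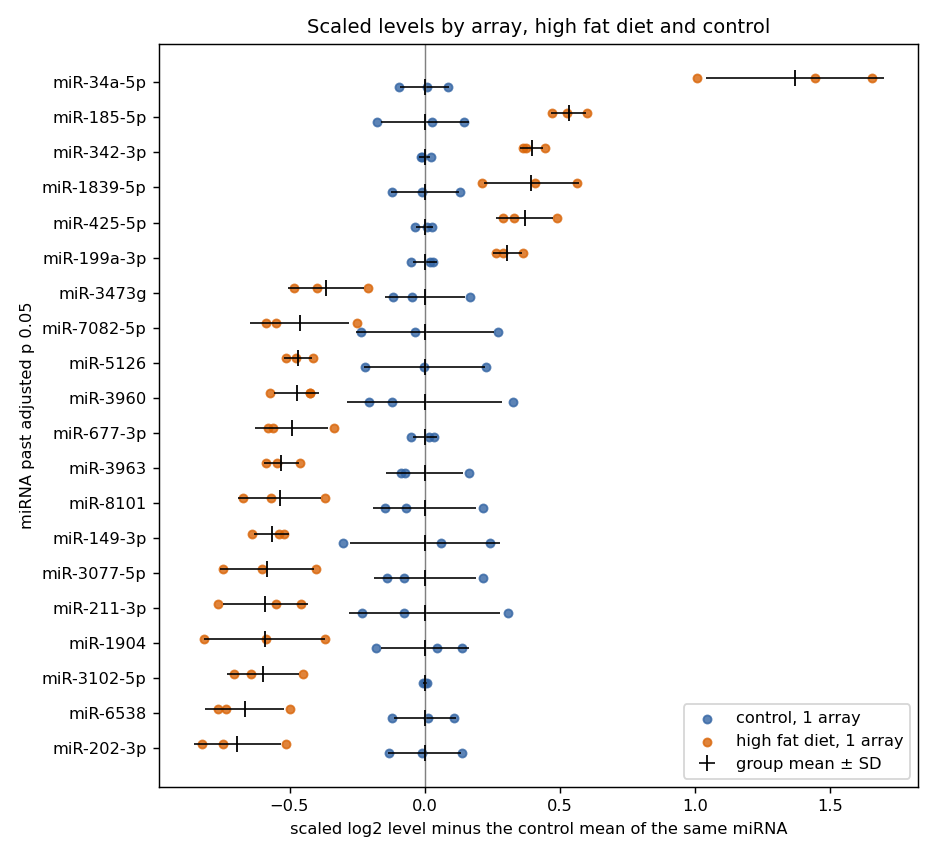
Scaled log2 level of each of the 20 called miRNAs on each control (blue) and high fat diet (orange) array, after taking off that miRNA's control mean; crosses are group means and horizontal bars SDs (n = 3 pools). The arrays of both groups do not overlap for any of the 20, and miR-34a-5p lies farthest out with a difference of 1.37.

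Of the 14 falls, miR-202-3p, a miRNA best known from the gonads, was the largest. Its scaled level was -2.89, -2.77 and -2.62 on the control arrays and -3.27, -3.50 and -3.58 on the high fat diet arrays, a fall by 0.69 (SE 0.11, adjusted p = 0.00458 by limma). Before scaling its intensity was 26.0, 32.5 and 36.6 against 22.9, 24.6 and 27.0, so that the groups overlapped between the lowest control and the highest fat-fed pool. miR-6538, a late entry that overlaps the gene Rnf144a, had an intensity of 74.4, 72.9 and 81.4 against 56.2, 60.0 and 68.1. It was the single lowered miRNA whose groups did not overlap before scaling, and its scaled level fell by 0.67 (adjusted p = 0.00665 by limma). The calls of miR-202-3p and miR-6538 were kept without any 1 array in turn.

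For miR-3102-5p, which overlaps Arhgef17, the 3 control arrays lay together at a scaled level of -1.97, -1.98 and -1.98, and the high fat diet arrays at -2.62, -2.43 and -2.68. The fall was 0.60 on the log2 scale, written as a difference of -0.60 (adjusted p = 0.00665 by limma), and it was lost without the first control array (-0.50, adjusted p = 0.0525). miR-3963, a registry entry without a well known role, read an intensity of 21232, 20655 and 20815 on the control arrays and 14898, 18259 and 23106 on the high fat diet arrays. The highest of those 6 values came from a fat-fed pool, so the groups overlapped before scaling. The scaled difference was -0.53 (adjusted p = 0.0263 by limma). For miR-3960 the intensities were 620.5, 492 and 532 against 423, 482 and 618, and for miR-5126 they were 1071, 901 and 1066 against 755, 927 and 1154. Both overlapped before scaling, and the scaled differences were -0.47 each. Without the first control array the calls of miR-3963, miR-3960 and miR-5126 were lost, at -0.35, -0.21 and -0.26. Leaving out the arrays in turn kept the call of miR-3960 in 2 of 9 fits and those of miR-3963 and miR-5126 in 6 of 9.

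The other 8 falls had scaled differences between -0.59 and -0.36. They were miR-1904 (-0.59), miR-211-3p (-0.59), miR-3077-5p (-0.58), miR-149-3p (-0.57), miR-8101 (-0.54), miR-677-3p (-0.49), miR-7082-5p (-0.46) and miR-3473g (-0.36). Without the first control array, 12 of the 14 falls were lost, all but those of miR-202-3p and miR-6538. Among these 8 the differences were then -0.43 for miR-1904, -0.18 for miR-3473g, -0.23 for miR-7082-5p, -0.33 for miR-8101, -0.34 for miR-211-3p, -0.38 for miR-3077-5p, -0.39 for miR-677-3p and -0.44 for miR-149-3p. Without the first or the second high fat diet array 10 of the 14 were lost each time. Over the 9 fits the call was kept 8 times for miR-677-3p, 6 for miR-1904 and miR-3077-5p, 5 for miR-8101, 4 for miR-211-3p and miR-149-3p, 3 for miR-7082-5p and 2 for miR-3473g. The call of miR-149-3p exists only through the metformin arrays, whose detection let it be tested. Detection was incomplete for miR-3077-5p (1 of 3 high fat diet arrays), miR-149-3p (2 of 3 chow-fed and 1 of 3 fat-fed pools) and miR-7082-5p (2 of 3 high fat diet arrays). The last of the 14, miR-3473g, had an adjusted p of 0.0498 by limma, and the first miRNA past the threshold on the other side was miR-101c, at 0.40 with an adjusted p of 0.0539. miR-350-3p (0.35) and miR-378d (0.39) came next, both at adjusted p = 0.0587. Then 6 miRNAs stood at adjusted p = 0.0624: miR-1895 (-0.44), miR-2861 (-0.31), miR-148a-3p (0.37), miR-7050-5p (-0.30), miR-423-5p (0.25) and miR-152-3p (0.33). Where a second probe of a called miRNA was detected on all 6 arrays, its difference had the same sign for 3 of 3 raised and 9 of 9 lowered miRNAs. The remaining called miRNAs had no such probe. Second probes share pools, arrays and scaling with the first, so they are not separate observations. Their agreement in sign was not counted for uncalled miRNAs. Other probes of miR-425-5p, miR-1839-5p, miR-149-3p, miR-3077-5p and miR-677-3p were detected on 0 of the 6 arrays. Those of miR-185-5p and miR-7082-5p were detected on 1 array each and that of miR-8101 on 3.

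The scaling took the same 0.35 from nearly all miRNAs, which by itself sets rises and falls apart in their unscaled differences. Before scaling, the 6 raised miRNAs were brighter with the diet by 0.66 to 1.72 on the log2 scale, with no overlap between groups. The 14 lowered miRNAs differed by -0.34 to -0.01, and 13 of the 14 overlapped. Of all tested miRNAs, 59 of 103 numbered under 1000 and 3 of 40 numbered 1000 or above were brighter without overlap. Dimmer without overlap were 0 of 103 and 1 of 40. Over all tested miRNAs the median unscaled difference was 0.38. What was measured as lower is therefore lower relative to the other miRNAs of the same array. Scaled to the positive control probes, limma called 1 miRNA, miR-34a-5p, with 27 at an unadjusted p under 0.05.

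**Figure D2:**
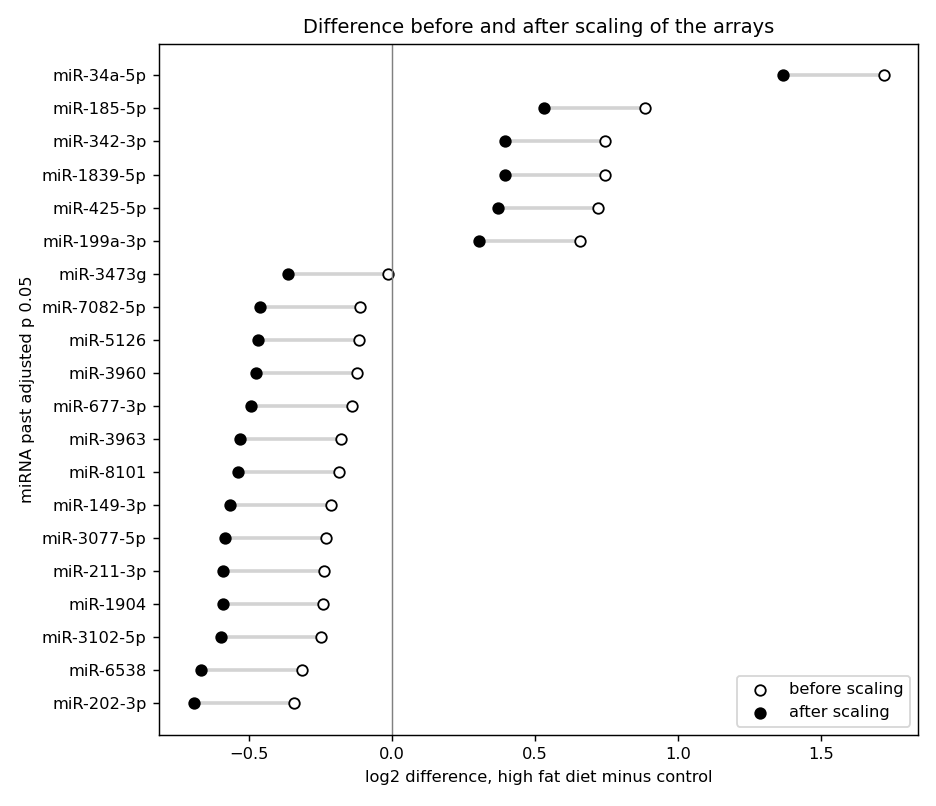
Log2 difference, high fat diet minus control, of the 20 called miRNAs before (open) and after (filled) division by each array's 75th percentile. Each pair lies 0.35 apart; the 6 raised miRNAs lie at 0.66 or above before scaling and the 14 lowered ones between -0.34 and -0.01.

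Other ways of processing moved the split between rises and falls. Against 6 higher and 14 lower in the scaling used here, quantile normalization gave 9 and 11, and the median over commonly detected probes 4 and 16. Normexp background correction, which also started from the median spot signal in place of the software's processed signal, gave 2 and 21. With the same columns left out on every array 99 miRNAs were tested and 17 were higher and 3 lower. Of the 20 called miRNAs 12 could be tested there, all with the same sign, and 7 passed, 4 of the rises and 3 of the falls. With the 75th percentile over all probes 1 miRNA was higher and 0 lower, and with no scaling 50 were higher and 0 lower. The median of all tested differences was 0.01 with quantile normalization, -0.04 with median scaling, -0.13 with normexp and 0.17 with the same columns. It was 0.56 with the percentile over all probes, 0.38 with no scaling and 0.16 with scaling to the positive controls.

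Some calls were lost when single arrays were left out, and the groups also differed in where their arrays lay. Leaving out the first control array took the count of 20 to 8, and leaving out the third took it to 40. It was 6 without the first fat-fed pool, 7 without the second and 13 without the second metformin array. The edge columns left out held 43.8%, 43.5% and 41.1% of all miRNA spots on control arrays against 53.6%, 0% and 33.6% with the diet. With those spots kept, limma called 0 miRNAs, whether spots were averaged (28 at an unadjusted p under 0.05) or their median taken (25), and miR-34a-5p stood at 0.97 and 0.51. Row 1 of 1 slide held the 3 high fat diet arrays and its row 2 the first 2 control arrays, while the third control array was in row 1 of another slide. Within the slide of 8 arrays, row and diet can be told apart only through the metformin arrays, which lay in both rows. With the row as a block on these 8 arrays limma called 0 miRNAs, 30 at an unadjusted p under 0.05, and all 20 kept their sign. There miR-34a-5p was at 1.27 (adjusted p = 0.0745), miR-185-5p at 0.68 (adjusted p = 0.0814) and miR-202-3p at -0.56 (adjusted p = 0.179). With 3 arrays a group, no exact permutation test can give a p below 0.1, so single values were not tested that way.

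Across all tested miRNAs the arrays of both groups did not overlap for 53 of 143 (37.1%), 31 of them higher and 22 lower with the diet. All 20 called miRNAs were among them. Differences were positive for 78 and negative for 65, and 51 miRNAs had an unadjusted p under 0.05. Arrays of 1 group correlated at 0.987 to 0.997 across miRNAs and arrays of different groups at 0.977 to 0.992. As for the labelled tissue, the hepatocyte markers miR-122-5p, miR-192-5p, miR-194-5p and miR-148a-3p were detected on 6 of 6 arrays and miR-122-3p on 5. The hepatocyte markers miR-802-5p and miR-455-3p were detected on 2, and miR-192-3p and miR-802-3p on 0. The 4 pancreatic and 4 neuronal markers were detected on 0 of 6, and none of 6 muscle and heart markers could be tested. Of those 6, miR-133b-3p was detected on 3 arrays, miR-1a-3p and miR-133a-3p on 2 each and miR-206-3p on 1. Of 9 hepatocyte markers 5 were tested, 0 passed, and their median difference was 0.08.

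In this scaling, early and late entries of the registry lay on opposite sides of 0. Of 103 tested miRNAs with a number under 1000, 76 had a positive difference, and the median was 0.10. Of 40 with a number of 1000 or above, 38 had a negative difference, and the median was -0.34. Calls were 5 higher and 4 lower in the first class and 1 higher and 10 lower in the second. Before scaling the classes were still apart, with medians of 0.46 and 0.01. In the first class 59 of 103 were then brighter with the diet without overlap and 0 dimmer, while in the second 36 of 40 overlapped. The gap between the class medians was 0.44, and 0.22 to 0.67 over 30 other settings. Some of these could not change it. The percentile over all probes, the median over commonly detected probes and the positive controls shift both classes alike, and the gap stayed at 0.44. With no filter, where most miRNAs stood at the floor, both medians and the gap were 0. Without the first control array the median of the late class was -0.10, with 27 of 40 negative. With the 75th percentile over all probes, with no scaling and with normexp, the class medians were 0.64 and 0.20, 0.46 and 0.01, and -0.06 and -0.28.

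The lowered miRNAs also shared a base content that played no part in their choice. A mature sequence was found for 125 of the 143 tested miRNAs. The 13 lowered miRNAs with a sequence had a median of 54.5% guanine (range 10.5% to 77.3%), the 5 raised ones 22.7%, and all 125 had 27.3%. For guanine and cytosine together these medians were 71.4%, 47.8% and 50%. miR-5126, printed above, is 77.3% guanine with no A or U, and miR-149-3p is 68.2% guanine. miR-3963 went the other way at 10.5%. Among the 34 miRNAs with 40% guanine or more, 11 were called lower and 0 higher, 30 had a negative difference, and the median was -0.36. Among the 91 below that share, 2 were called lower and 5 higher.

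Below 40% guanine the medians hardly varied, at 0.09 (29 miRNAs under 20%), 0.12 (37 from 20% to 30%) and 0.07 (25 from 30% to 40%). Before scaling these medians were 0.44, 0.47 and 0.42, and that of the guanine-rich miRNAs was -0.01. Across the 125 miRNAs, which share arrays and labelling and are not independent, the guanine share and the difference correlated at r = -0.497 (Pearson) and rho = -0.466 (Spearman). For guanine and cytosine together the values were -0.523 and -0.460. That share contains the guanine share, and cytosine alone was not tested, so the bases cannot be told apart here. Within the early class the values for guanine were -0.198 and -0.143 over 90 miRNAs, and within the late class -0.371 and -0.410 over 35. Of the 34 guanine-rich miRNAs 25 were late entries, against 10 of the other 91, so the 2 descriptions are not separate observations. The mean level of a miRNA correlated with its difference at r = -0.019 and rho = 0.053 over 143 miRNAs. The part of labelling and hybridisation in these patterns was not tested.

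**Figure D3:**
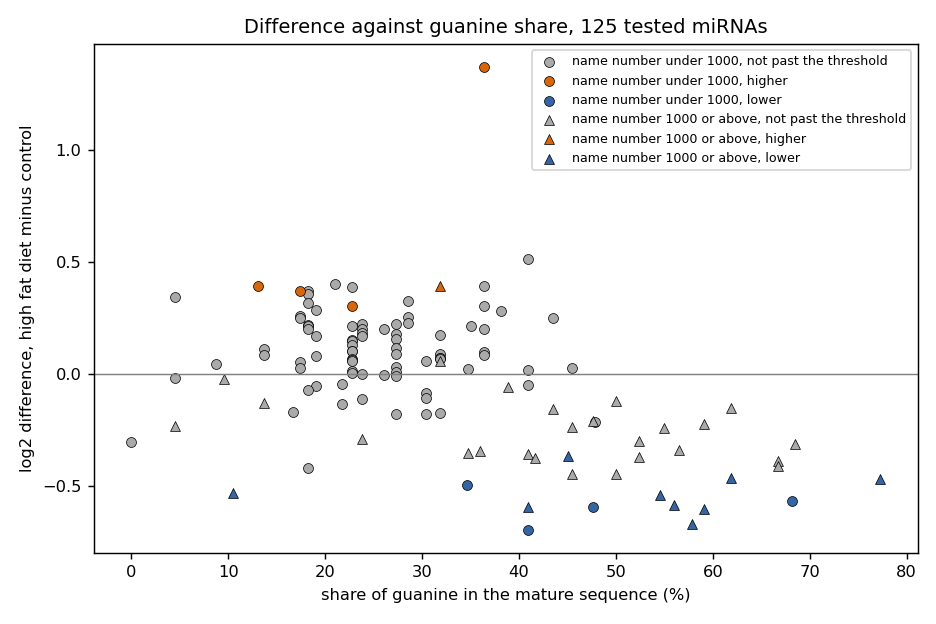
Log2 difference (high fat diet minus control, scaled) of 125 tested miRNAs against the share of guanine in the mature sequence; circles are names numbered under 1000, triangles 1000 or above, and colour marks miRNAs called higher (orange) or lower (blue). Points at 40% guanine or more lie mostly below 0, with 30 of 34 negative.

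miRNAs with known roles in liver metabolism mostly stood a little above 0, as did the class they come from: their names are all numbered under 1000, and 76 of the 103 miRNAs of that class were positive with a median of 0.10. Among 13 tested lipid and cholesterol regulators, the rises were those of miR-185-5p and miR-34a-5p, 0 fell, 12 were positive and the median was 0.19. Of the 103 miRNAs numbered under 1000, 5 rose and 4 fell. Over all 143 tested miRNAs 6 (4.2%) rose and 14 (9.79%) fell. miR-148a-3p, which represses the LDL receptor, was at -0.28, 0.01 and 0.21 on the control arrays and 0.46, 0.30 and 0.29 on the high fat diet arrays, without overlap, and did not pass (0.37, adjusted p = 0.0624 by limma). The 2 arms of the miR-378a hairpin, which lies in Ppargc1b, were at 0.34 (5p) and 0.24 (3p), also without passing. miR-122-5p, the hepatocyte miRNA that sustains cholesterol synthesis, was at 6.64 ± 0.08 and 6.53 ± 0.09 (-0.10, adjusted p = 0.422). miR-33-5p, which is encoded in Srebf2 and represses the cholesterol exporter Abca1, was detected on 0 of 6 arrays. The list's median turned negative with the deposited value table and with the mean over all spots.

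The 9 tested insulin and glucose regulators were all positive, with a median of 0.22, and 0 passed. Among them miR-107-3p, which lowers insulin sensitivity in liver, was at 0.20 (adjusted p = 0.172) and its relative miR-103-3p at 0.06. The miR-29 family, which represses collagens and genes of insulin signalling, was at 0.22 (29a), 0.25 (29b) and 0.22 (29c), and miR-29a-3p did not overlap between groups. miR-152-3p, a relative of miR-148a-3p with the same seed, was at 0.33 (adjusted p = 0.0624) without overlap. The median of this list was positive in all 30 other settings, 0.02 to 0.75. Some of these settings raise all miRNAs alike, so the sign says little there. The median of all tested miRNAs was then 0.56 (percentile over all probes), 0.38 (no scaling) and 0.16 (positive controls).

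Of 6 p53-responsive miRNAs tested, miR-34a-5p rose and the other 5, among them miR-192-5p (0.08), miR-194-5p (0.22) and miR-15a-5p (0.01), did not pass. Of 9 miRNAs linked to injury and fibrosis 2 rose, miR-34a-5p and miR-199a-3p, and 0 fell (median 0.25). Over all tested miRNAs 6 of 143 (4.2%) rose, and names numbered under 1000 had a median of 0.10. The rise of miR-34a-5p is the same one that is counted in the lipid and p53 lists. miR-29a-3p, miR-29b-3p and miR-29c-3p are in both the injury list and the insulin list. The median of each is the value of a miR-29 member, so these lists are not separate observations. miR-210-3p, the classical hypoxia-induced miRNA, was at 0.51 without overlap (adjusted p = 0.0974) and was detected on 2 of 3 control arrays. miR-21a-5p, raised in many injuries, was at 3.59, 3.59 and 3.97 in control and 3.58, 4.17 and 3.44 with the diet, a difference of 0.01 with groups that overlapped throughout. The injury list kept a positive median in all 30 other settings (0.10 to 0.79), among them those that raise all miRNAs alike. The median of the p53 list turned negative with the deposited table and the mean over all spots.

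Among markers of cell types other than hepatocytes, 2 miRNAs rose, miR-199a-3p and miR-342-3p. Over all tested miRNAs 6 of 143 (4.2%) rose. In such bulk liver RNA more cells of a type and more RNA per cell cannot be told apart. Of 11 stellate and mesenchymal markers 3 were tested and 8 were detected on 0 of 6 arrays, among them miR-143-3p, miR-145a-5p and miR-214-3p. All 3 tested ones come from the miR-199 group, whose near-identical members probes may not tell apart, and miR-199a-3p rose. The other arm, miR-199a-5p, was at 0.26 (adjusted p = 0.0959 by limma) without overlap. Their summed level relative to the scaling percentile was 0.305 to 0.315 in control and 0.360 to 0.426 with the diet. The called miR-199a-3p, the brightest of the 3, is part of this sum, so the sum is not a separate observation.

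Of 11 leukocyte markers 4 were tested, and miR-342-3p rose. Myeloid miR-223-3p was at 0.09 (adjusted p = 0.628), pan-leukocyte miR-142a-3p at -0.13 and miR-146a-5p at 0.15, and these 3 overlapped between groups, while miR-150-5p and miR-155-5p were detected on 0 of 6 arrays. The summed leukocyte level, which includes the called miR-342-3p, was 0.488 to 0.577 in control and 0.568 to 0.634 with the diet. Endothelial miR-126a-3p was at 0.18 without overlap (adjusted p = 0.214), biliary miR-31-5p at 0.30 and erythroid miR-451a at 0.11, the last with control arrays spread from -1.57 to -0.13. The part of these cell types in the rises was not tested. The sign of these values depended on the setting. With normexp the stellate, leukocyte, biliary and erythroid values turned negative. With the mean over all spots the leukocyte, endothelial and biliary values turned negative, and with the median over all spots the leukocyte and endothelial values. In the deposited table the endothelial and erythroid values were negative, and the erythroid value turned in 6 settings in all.

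Families and clusters moved by little. The 9 tested let-7 members lay between -0.17 (miR-98-5p) and 0.20 (let-7i-5p), with a median of 0.07 that turned negative in 4 settings, 3 of them other scalings. The 5 miR-30 members had a median of 0.06, and the 4 of the miR-17 family -0.04, with the sign of both depending on the scaling. The 6 members of the miR-15 and miR-16 family were all positive, from 0.01 (miR-15a-5p) to 0.39 (miR-322-5p), with a median of 0.21 that turned negative with the median over all spots. The 5 tested miRNAs of the miR-23, miR-27 and miR-24 clusters lay within 0.16 to 0.19, the narrowest range among lists of 5 or more. No member of these 5 groups passed. Nor did the tested pairs of the miR-26 family (median 0.14), the miR-101 family (0.34) and the miR-148 and miR-152 family (0.35), or the 4 tested members of the miR-99, miR-100 and miR-125 families (0.11).

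**Figure D4:**
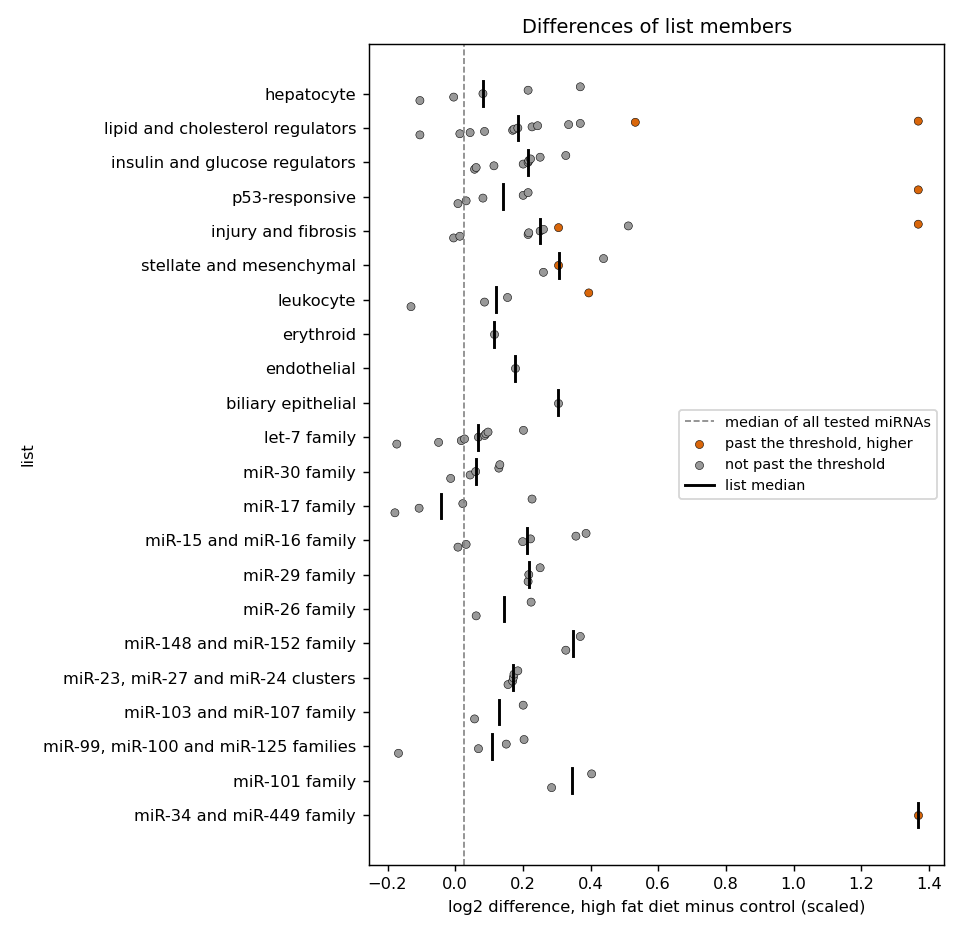
Log2 differences of the tested members of each list (points; orange where past the threshold), the list's median (black bar) and the median of all 143 tested miRNAs (dashed line, 0.03). Most list medians lie between 0.06 and 0.35, and the called members are miR-34a-5p, miR-185-5p, miR-342-3p and miR-199a-3p.

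The other arm of a called miRNA's hairpin was tested in 2 cases. miR-1839-3p was at -0.06 (adjusted p = 0.757 by limma), against a rise of 0.39 for miR-1839-5p, and the difference between the arms was not tested. miR-199a-5p is given above. Among called miRNAs whose hairpin lies within 10 kb of another tested one, miR-7686-5p beside miR-202-3p was at -0.34 without passing (adjusted p = 0.172).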

How the data were processed

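Per the file headers, each deposited scanner file gives the intensity of every spot after background subtraction (Feature Extraction version 11.5.1.1), not scaled between arrays; the submitters' processing notes give version 10.7. The values in the authors' deposited table are log2; the choice of its constant per array is not known. Edge columns were left out from each side in steps of 4 columns while at least 10% of spots of bright probes lacked signal. Probes with under 3 spots left on any array (425) were dropped. A probe was detected where over a share of 0.5 of its spots were marked well above background. The floor of scaled values was their 1st percentile among detected values (0.0406), and a miRNA is its brightest probe. miRNAs detected on all 3 arrays of a group were tested, 5 of them only through the metformin arrays. limma 3.58.1 in R 4.3.3 (with the data.table package, version 1.17.8) fitted 3 group means over 9 arrays, two-sided, with Benjamini-Hochberg adjustment over 143 miRNAs; the median SE was 0.12. The scripts were tested on simulated data. The miRNAs named are those called, tested list members, and tested miRNAs sharing a hairpin or seed with a called one; others beside the threshold were chosen after their values were seen. The members and lists were chosen with earlier results of these data known.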

Additional observations from a re-analysis of the deposited data

How the results depend on the processing

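The count of 20 called miRNAs became 0 with the mean or the median over all spots, with no filter on detection (45 at an unadjusted p under 0.05 by limma), with the slide row as a block (30) and with the deposited value table (16). It was 1 with the 75th percentile over all probes and 1 with scaling to the positive control probes, 12 in a fit of only the 6 arrays, 31 with array weights, 39 with the slide as a block and 50 with no scaling. Leaving out single arrays gave 6 to 40 calls. With the replicate block 22 were called; replicate numbers did not pair the arrays (correlations of deviations -0.00377, 0.371 and -0.223). The other settings gave 19 to 25, among them the same columns on all arrays (20, but 17 higher and 3 lower). No scaling, scaling to positive controls and normexp were chosen after seeing the data.

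Over 82 named miRNAs and 31 alternatives, 2164 values kept their side of the threshold, 1972 of them with the same sign and 192 with the opposite sign and uncalled in both. Calls were lost in 235, gained in 79, and 12 values called in one of both fits turned. With normexp the log2 difference of miR-1839-5p was -0.14 and the log2 difference of miR-425-5p -0.12. The log2 difference of miR-3077-5p was 0.057 with the median over all spots and 0.12 in the deposited table, and the log2 difference of miR-7082-5p was 0.35 in that table. With the percentile over all probes, where the median was 0.56, the log2 difference of miR-7082-5p was 0.075, of miR-3473g 0.17, of miR-3960 0.064, of miR-3963 0.0070, of miR-5126 0.071, of miR-677-3p 0.046 and of miR-8101 0.0010. The cause was not tested. miR-34a-5p passed in 25 of 30 alternatives that gave it a value. Signal near background limits miR-1839-5p, miR-149-3p, miR-3077-5p and miR-7082-5p. Other called miRNAs were also dim, though detected on all 6 arrays. Their intensities were 16.0 to 21.1 for miR-677-3p, 12.4 to 24.7 for miR-1904, 16.1 to 27.0 for miR-8101 and 14.5 to 29.6 for miR-425-5p.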
